A study of Sus scrofa with 20 samples.

Results

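The RAB small GTPase genes were described in hippocampus RNA of 20 German Landrace pigs, hybridized to porcine Snowball arrays from Affymetrix, 1 array per pig. The labels gave 10 animals a high-reactive (HR) and 10 a low-reactive (LR) coping pattern, and all were labelled adult, with no treatment and no transgene. Per the methods of the study both groups were extremes of coping behavior in a backtest early in life, in which a piglet is held on its back, and they were also chosen by haplotype at a quantitative trait locus (QTL) on chromosome 12, so that behavior and haplotype cannot be told apart. The sources used here do not give sex, litter or array batch. A gene counted as a RAB gene when its symbol in the platform annotation was RAB followed by a number, with at most 1 letter and 1 digit after it, and when its brightest probe set had a mean log2 value of 5.53 or more over the 20 arrays. This held for 38 of the 44 RAB symbols on the platform, which had 83 probe sets in all, in a table where 10313 named genes had a probe set above that level. RAB27A at 5.71 and RAB37 at 5.78 lay just inside the level, RAB34 at 5.45 and RAB44 at 5.10 just outside, and RAB17, RAB25, RAB40C and RAB38 lay lower still, between 3.94 and 5.05. The paralogs RAB1A, RAB3A, RAB5A, RAB6A and RAB11B were not analysed here.

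RAB proteins are small GTPases that give each membrane compartment of a cell its identity. A RAB is prenylated, delivered to a membrane, switched on there by an exchange factor that loads GTP, binds effectors such as tethers and motor adaptors while it is on, and is switched off by a GTPase-activating protein before a dissociation inhibitor takes it back to the cytosol. In neurons RAB3 and RAB27 proteins act at synaptic and secretory vesicles, RAB5 on early endosomes, RAB7 on late endosomes and lysosomes, RAB11 on recycling endosomes that carry receptors towards the synapse, and RAB1 and RAB6 at the Golgi apparatus.

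The tissue was checked by its markers. All 8 neuron markers tested lay above 5.53, as did 6 of 6 astrocyte, 7 of 7 oligodendrocyte and 6 of 6 pyramidal cell markers on the platform, whereas for dentate granule cells PROX1, C1QL2 and STXBP6 were above and DSP, TDO2 and LCT below. Of the choroid plexus markers, a tissue that borders the hippocampus, TTR, KCNJ13, FOLR1, PRLR and KL were above the level and OTX2 and AQP1 below. The mean of the choroid plexus markers ran from 6.47 to 7.96 in HR and from 6.40 to 7.76 in LR. Between arrays the correlation over the kept probe sets ran from 0.844 to 0.988 (median 0.969), and LR replicate 1 and HR replicate 5 lay at opposite ends of the main axis of variation, which took up 48.0% of the variance. The deposited log2 values had been set to 1 common distribution over the arrays, and values of different probe sets depend on their probes, so levels were not ranked between genes.

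The synaptic and secretory RAB3 and RAB27 genes read here were RAB3B, RAB3C, RAB3D, RAB27A and RAB27B, at mean log2 values from 5.71 to 10.1. RAB3A was not analysed, so the synaptic set is incomplete. RAB3C, a synaptic vesicle RAB, had values from 9.71 through a median of 10.02 to 10.47 in HR and from 10.06 through 10.22 to 10.60 in LR. The groups overlapped, with 8 of 10 HR arrays below the LR median. HR arrays averaged 10.05 ± 0.23 and LR arrays 10.25 ± 0.15 (mean ± SD, n = 10 each), a log2 difference of -0.20 ± 0.09 (SE, unadjusted p = 0.0305, adjusted p = 0.393 with limma). The gene lies on chromosome 16 from 37411931 to 37729583 on the Sscrofa 11.1 assembly. RAB27B, which acts in the docking of secretory granules and exosomes, ran from 6.16 through 6.76 to 7.84 in HR and from 6.81 through 7.03 to 7.69 in LR, so that the HR arrays reached both lower and higher than any LR array. Its log2 difference was -0.29 ± 0.18 (p = 0.126), the most negative of the 38 genes. RAB3B differed by 0.13 ± 0.10 (p = 0.196), RAB3D, known from regulated secretion, by 0.04 ± 0.10 (p = 0.700) and RAB27A by 0.18 ± 0.18 (p = 0.309). Of the 5 genes 3 had positive and 2 negative differences. RAB26, a RAB of secretory and synaptic vesicles, differed by -0.18 ± 0.10 (p = 0.0848), and RAB37, of secretory granules, by -0.06 ± 0.11.

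**Figure D1:**
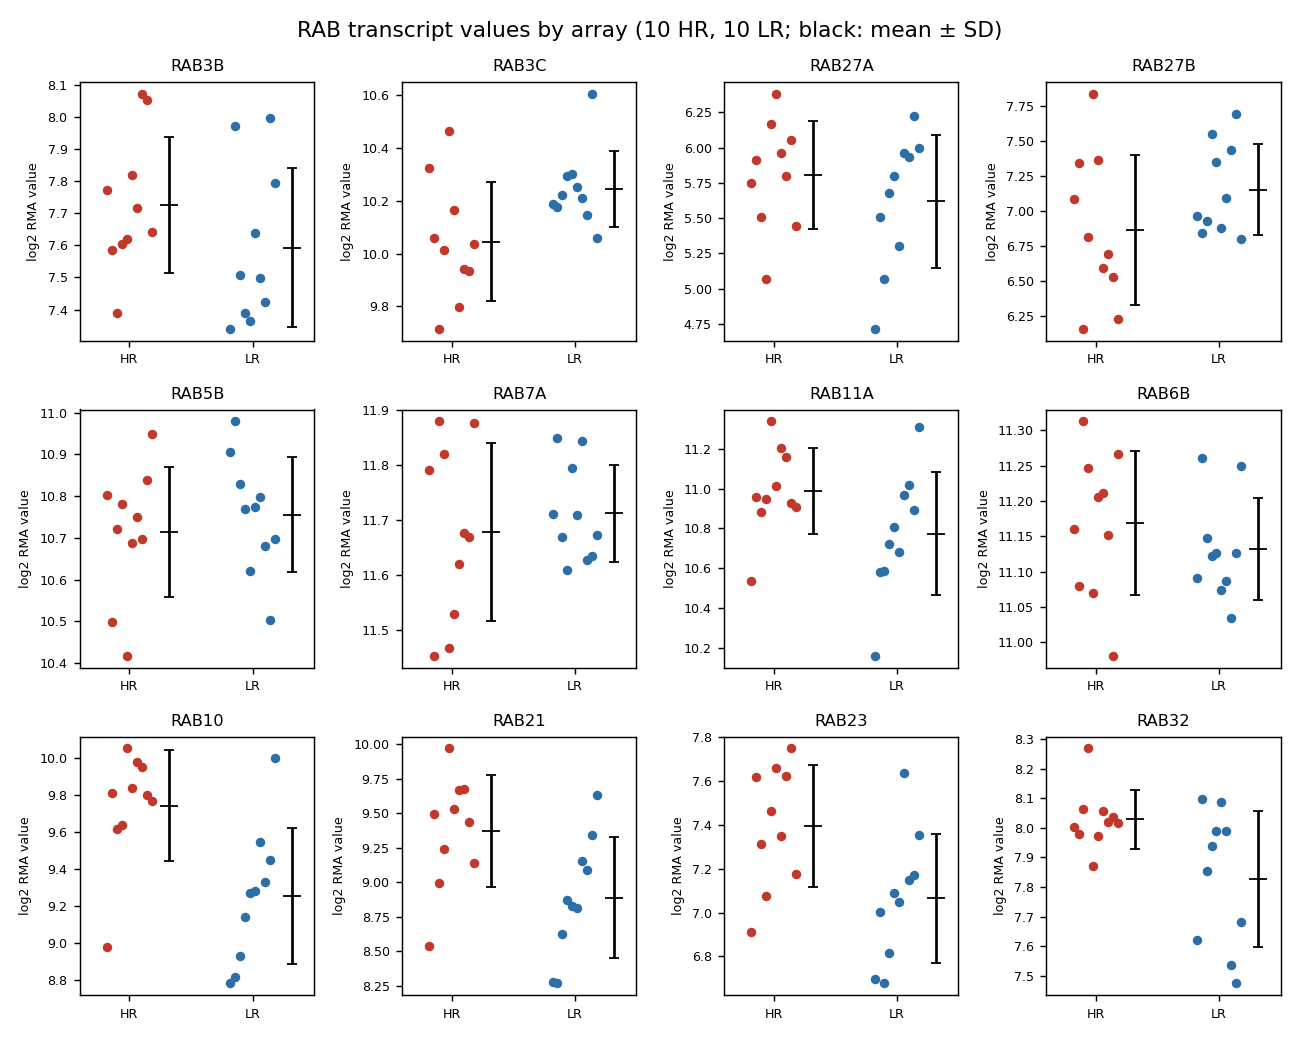
Log2 values of 12 RAB genes on each of the 20 arrays, 10 HR in red and 10 LR in blue, with the mean ± SD of each group in black and a separate y axis for each gene. The groups overlapped in every panel, and RAB3C was the only gene shown with an unadjusted p under 0.05 whose HR mean (10.05) lay below its LR mean (10.25).

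The endosomal RAB5, RAB7 and RAB11 genes had mean log2 values from 6.36 for RAB7B to 11.70 for RAB7A. RAB5B ran from 10.42 through 10.73 to 10.95 in HR and from 10.50 through 10.77 to 10.98 in LR, and its log2 difference was -0.04 ± 0.07. RAB5C, on chromosome 12 outside the QTL interval, ran from 9.56 through 9.94 to 10.20 in HR and from 9.70 through 9.99 to 10.36 in LR, with a difference of -0.06 ± 0.08. RAB7A, which directs traffic to late endosomes and lysosomes, spanned 11.45 to 11.88 in HR and 11.61 to 11.85 in LR and differed by -0.03 ± 0.07, with a 95% interval from -0.17 to 0.10. A dimmer probe set of RAB7A differed by -0.32 ± 0.20, and the mean of both by -0.18. RAB7B differed by 0.05 ± 0.08. RAB11A, the recycling endosome RAB, ran from 10.54 through 10.95 to 11.34 in HR and from 10.16 through 10.77 to 11.31 in LR, with the LR median exceeded on 9 of 10 HR arrays and a difference of 0.21 ± 0.11 (unadjusted p = 0.0735). None of these 5 genes had an unadjusted p under 0.05.

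The Golgi RABs RAB6B and RAB1B had no p under 0.05. RAB6B, the form of RAB6 known as enriched in neurons, ran from 10.98 through 11.18 to 11.31 in HR and from 11.03 through 11.12 to 11.26 in LR. Its difference of 0.04 ± 0.05 had a 95% interval from -0.07 to 0.15, and its other 2 probe sets differed by 0.03 and -0.002. RAB1B, which acts between the endoplasmic reticulum and the Golgi apparatus, differed by -0.09 ± 0.08 (p = 0.312), with values from 7.05 to 7.57 in HR and from 6.97 to 7.58 in LR.

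Over the 38 RAB genes, 0 differed between HR and LR after Benjamini-Hochberg adjustment over all 23861 probe sets with limma, where the background was also 0% of probe sets, and the lowest adjusted p was 0.284. At an unadjusted p under 0.05 there were 9 genes, 8 higher and 1 lower in HR. That was 23.7% of the genes against a background of 11.5% of all kept probe sets, which divided into 7.78% higher and 3.74% lower. An exact Wilcoxon rank sum test put 7 genes under 0.05, against 9.61% of all probe sets, and 0 after adjustment. The difference was positive for 24 of 38 genes (63.2%) against 45.9% of all kept probe sets, the median difference was 0.04 against -0.01, and the range was -0.29 to 0.49. In 0 of 38 genes did the groups not overlap, as in 0% of all probe sets. The genes were read from the same arrays and many varied together over them, so the counts are no independent sum of single results. Among those above 7 in mean level, 30 genes, 8 had a p under 0.05, against 13.3% of the probe sets above 7.

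**Figure D2:**
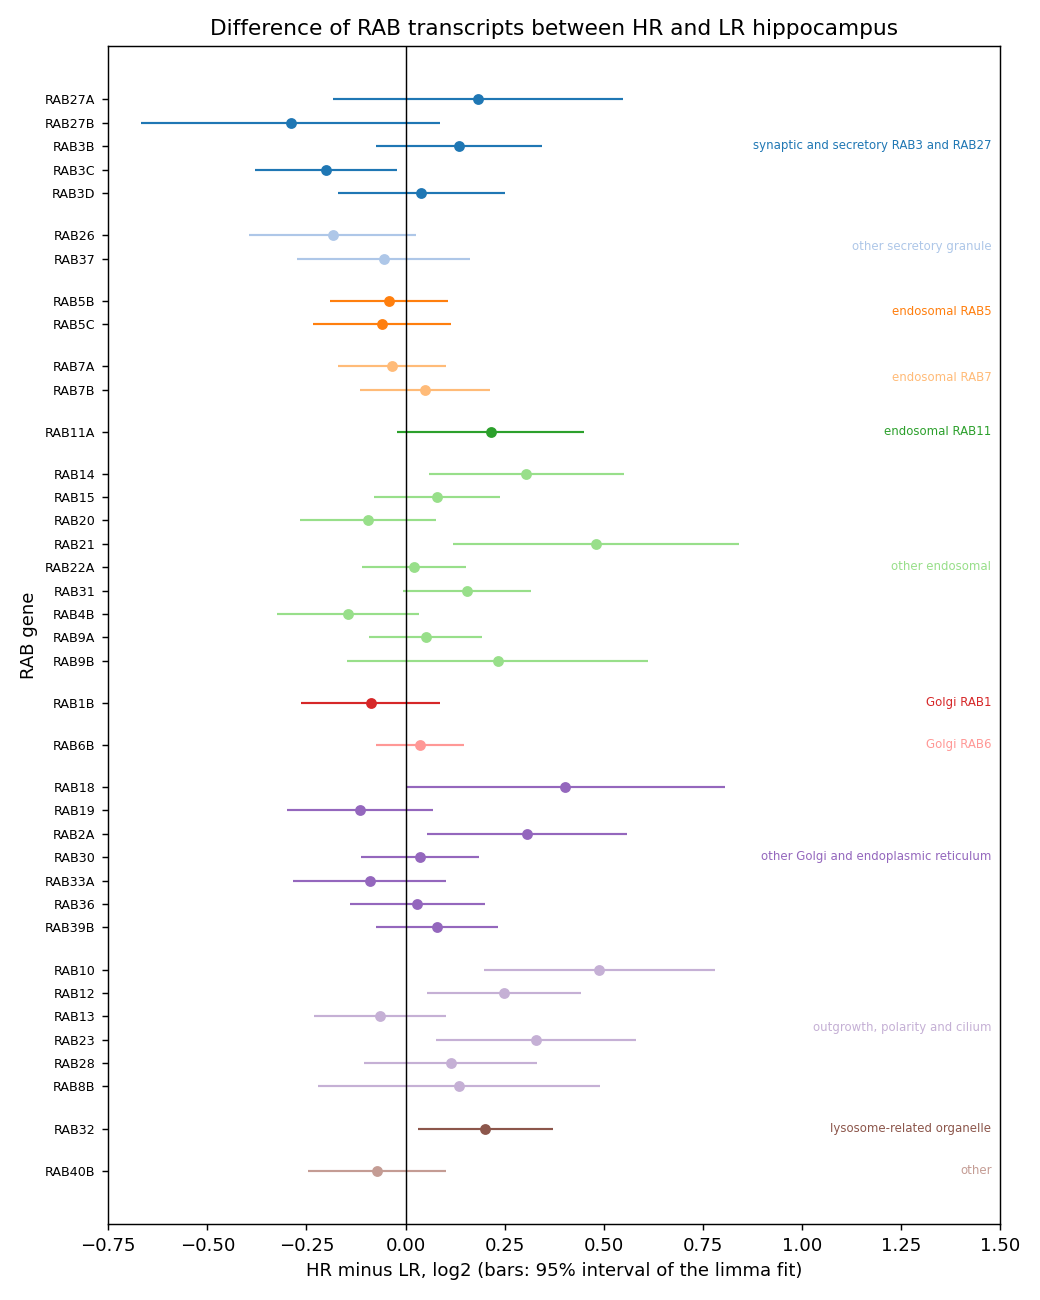
HR minus LR difference of each of the 38 RAB genes on the log2 scale, with the 95% interval of the limma fit, grouped and coloured by the compartment a RAB is known for. The intervals of RAB10, RAB21, RAB23, RAB12, RAB14, RAB2A, RAB32 and RAB18 lay above 0 and that of RAB3C below it, before any adjustment.

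RAB10 had the lowest p of the family. It is known for moving GLUT4 vesicles to the plasma membrane and for membrane addition in growing axons, and it lies on chromosome 3 from 112842190 to 112924188. Its values ran from 8.98 through 9.81 to 10.05 in HR and from 8.78 through 9.28 to 9.9999 in LR. The lowest HR array, replicate 1, lay among the LR arrays, and the other 9 exceeded the median of LR. The means were 9.74 ± 0.30 and 9.25 ± 0.37, a difference of 0.49 ± 0.14 or 1.40-fold (unadjusted p = 0.00215, adjusted p = 0.284). Both other probe sets of RAB10 differed in the same direction, by 0.47 ± 0.14 and 0.28 ± 0.12.

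Of the 6 RABs grouped under outgrowth, polarity and cilia, RAB10 included, 3 had a p under 0.05, and all 3 were higher in HR, where the background was 7.78% of probe sets higher. Of these 3 RAB12 was under 0.05 in its brightest probe set but not in the mean of its probe sets. The grouping was chosen with earlier results of these data known, so the count is no test of the group. RAB23 is an antagonist of hedgehog signalling at the primary cilium in the mouse. It ran from 6.91 through 7.41 to 7.75 in HR and from 6.68 through 7.07 to 7.64 in LR, a difference of 0.33 ± 0.12 (p = 0.0129, adjusted p = 0.342), and its other probe sets differed by 0.11 and 0.51. RAB12, a substrate of the kinase LRRK2, ran from 8.77 through 9.25 to 9.41 in HR and from 8.55 through 8.99 to 9.34 in LR, a difference of 0.25 ± 0.09 (p = 0.0141, adjusted p = 0.345). Its 2 dimmer probe sets differed by 0.03 and -0.19, and the mean of all 3 by 0.03 (p = 0.575), so that the difference of RAB12 rested on its brightest probe set. RAB13, RAB28 and RAB8B differed by -0.07, 0.11 and 0.14, each with a p above 0.29.

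Among the other endosomal RABs 2 of 9 had a p under 0.05, against the background of 11.5%. RAB21, which carries integrins through early endosomes, ran from 8.54 through 9.47 to 9.97 in HR and from 8.27 through 8.85 to 9.63 in LR. The ranges overlapped widely, though 9 of 10 HR values exceeded the median of LR, and the difference was 0.48 ± 0.17 or 1.39-fold (p = 0.0112, adjusted p = 0.339). RAB14, which acts between the Golgi apparatus and endosomes, ran from 9.79 through 10.45 to 10.60 in HR and from 9.55 through 10.12 to 10.61 in LR, a difference of 0.30 ± 0.12 (p = 0.0177, adjusted p = 0.360). A probe set of RAB14 below the level, at 3.39, differed by -0.28. RAB31, a RAB of endosomes and the trans-Golgi network, differed by 0.16 ± 0.08 (p = 0.0578). RAB4B, of rapid recycling, differed by -0.14 ± 0.09, RAB9B by 0.23 ± 0.18, and RAB15, RAB20, RAB22A and RAB9A by 0.08, -0.09, 0.02 and 0.05.

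Of the other RABs of the Golgi apparatus and endoplasmic reticulum 2 of 7 had a p under 0.05, against the background of 11.5%, and 1 of them, RAB18, was at the threshold. RAB2A, of traffic between both organelles, ran from 9.26 through 9.92 to 10.08 in HR and from 8.96 through 9.63 to 10.15 in LR, a difference of 0.31 ± 0.12 (p = 0.0192, adjusted p = 0.365). RAB18, known from lipid droplets and the endoplasmic reticulum, ran from 7.55 through 8.33 to 9.13 in HR and from 7.11 through 7.99 to 8.51 in LR, a difference of 0.40 ± 0.19 (p = 0.0499, adjusted p = 0.434). The median of LR was exceeded on 6 of 10 HR arrays for RAB18. RAB19, RAB30, RAB33A, RAB36 and RAB39B differed by -0.11 to 0.08. RAB32, which serves lysosome-related organelles and mitochondria, ran from 7.87 through 8.02 to 8.27 in HR and from 7.48 through 7.90 to 8.10 in LR. Its difference was 0.20 ± 0.08 (p = 0.0219, adjusted p = 0.372), and its spread was smaller in HR (SD 0.10) than in LR (SD 0.23). RAB40B, on chromosome 12 like RAB37, differed by -0.07 ± 0.08.

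Leaving out each array in turn kept 7 of the 9 genes at an unadjusted p under 0.05 in all 20 fits. RAB3C kept it in 15 of 20 fits and had p = 0.0663 without LR replicate 9, and RAB18 kept it in 8 of 20. These fits share nearly all arrays. How many of all probe sets under 0.05 stayed so throughout was not counted, so 7 of 9 is no trait of the RAB genes. Without HR replicate 1, RAB10 passed the adjusted threshold (difference 0.57, adjusted p = 0.0453), as 1 of 110 probe sets. With weights for the arrays, 14 RAB genes had an unadjusted p under 0.05, against 23.5% of all probe sets, and 5 passed the adjusted threshold, RAB10 (adjusted p = 0.0193), RAB21 (0.0328), RAB3C (0.0423), RAB23 (0.0437) and RAB14 (0.0444), among 947 probe sets in all.

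The RAB genes varied over the arrays in 2 opposed blocks. LR replicate 1 and HR replicate 5 were each the lowest or highest array for 15 of 38 genes, and LR replicate 2 for 10, whereas LR replicate 6 was so for 0. LR replicate 1 and HR replicate 5 were also the ends of the main axis of all kept probe sets. The share of all probe sets with these arrays as extremes was not counted, so this is no trait of the RAB genes alone. The blocks were first read along the mean of the 8 neuron markers, which was 11.01 ± 0.10 in HR and 10.90 ± 0.10 in LR and ran from 10.76 in LR replicate 1 to 11.14 in HR replicate 5. In bulk tissue, fewer cells of a type and less RNA per cell cannot be told apart. With the group in the fit, 13 RAB genes rose and 9 fell with the neuron level after adjustment, 57.9% of the family. The background was 26.5% of probe sets rising and 34.8% falling, so that such slopes were common on these arrays. Before adjustment 14 slopes of RAB genes were positive and 12 negative at p under 0.05, against 66.2% of all probe sets in either direction.

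The genes that rose with the neuron level were led by RAB21, with a slope of 3.97 ± 0.33 log2 units per log2 unit of the neuron level (adjusted p = 3.63e-08), RAB10 with 3.03 ± 0.35, RAB14 with 2.53 ± 0.30 and RAB11A with 2.39 ± 0.30. RAB18 had the steepest slope, 4.07 ± 0.53, and RAB2A rose by 2.45 ± 0.35. RAB8B, RAB9B, RAB27A, RAB23, RAB12, RAB28 and RAB39B completed the 13. Those that fell were led by RAB26 with -1.81 ± 0.35, RAB5C with -1.43 ± 0.30, RAB1B with -1.40 ± 0.31 and RAB4B with -1.39 ± 0.33, followed by RAB36, RAB33A, RAB20, RAB5B and RAB3D. Early endosomal RAB5B and RAB5C fell where the recycling RAB11A rose. Synaptic RAB3C had a slope of 0.04 ± 0.44 and Golgi RAB6B of -0.06 ± 0.26, and neither passed the test.

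**Figure D3:**
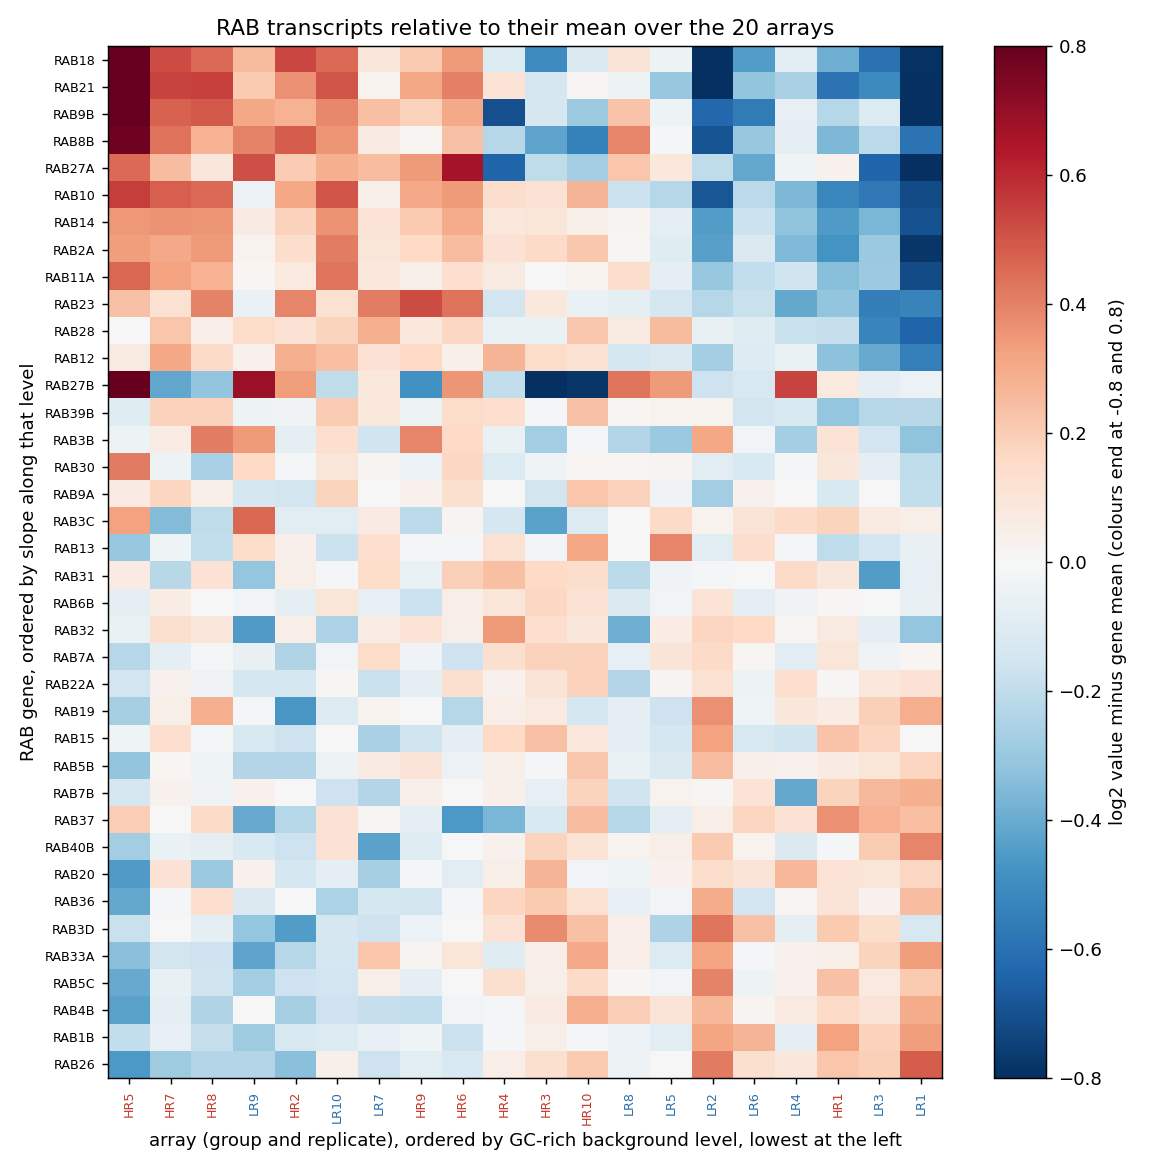
Log2 value of each of the 38 RAB genes minus its mean over the 20 arrays, with the arrays (HR names in red, LR names in blue) ordered by the GC-rich background level and the genes by their slope along it. RAB18, RAB21 and RAB10 at the top were high in HR replicate 5 and low in LR replicate 1, RAB26 and RAB1B at the bottom were low and high there, and genes in the middle such as RAB3C and RAB6B followed neither.

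Much the same order of arrays appeared in background control probes, which are read here beside the neuron level. The GC-rich background level was the mean of the 24 control probe sets with 18 or more G or C bases, and it was 7.31 ± 0.20 in HR and 7.50 ± 0.20 in LR, from 6.998 in HR replicate 5 to 7.81 in LR replicate 1. It was related to the neuron level with Pearson's r = -0.930 and Spearman's rho = -0.947 over 20 arrays, the 1 relation of this kind tested, each with a permutation p of 1e-05, the smallest that 100000 resamples can give. Within HR r was -0.950, within LR -0.875, and without the 2 arrays farthest from the median -0.904. Along the GC-rich background level 12 RAB genes rose and 13 fell, against a background of 37.7% and 28.1%. RAB18 fell by 2.01 ± 0.28 per log2 unit of it, RAB21 had a slope of -1.92 ± 0.20 and RAB10 of -1.48 ± 0.19, whereas RAB26 rose by 0.99 ± 0.16 and RAB5C by 0.70 ± 0.15. With both levels in 1 fit, 0 RAB genes passed the test along the neuron level (0 rising and 0 falling). The share of all probe sets passing in that fit was not counted. Slopes along the GC-rich background level with the neuron level added were not read. Marker lists of single neuron types went both ways by their means. The pyramidal cell markers averaged 8.04 ± 0.11 in HR and 8.12 ± 0.09 in LR, the interneuron markers 9.27 ± 0.14 and 9.33 ± 0.10, and the dentate granule cell markers 7.98 ± 0.13 and 7.87 ± 0.09. What the neuron level and the GC-rich background level each contribute to these slopes cannot be told apart here.

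**Figure D4:**
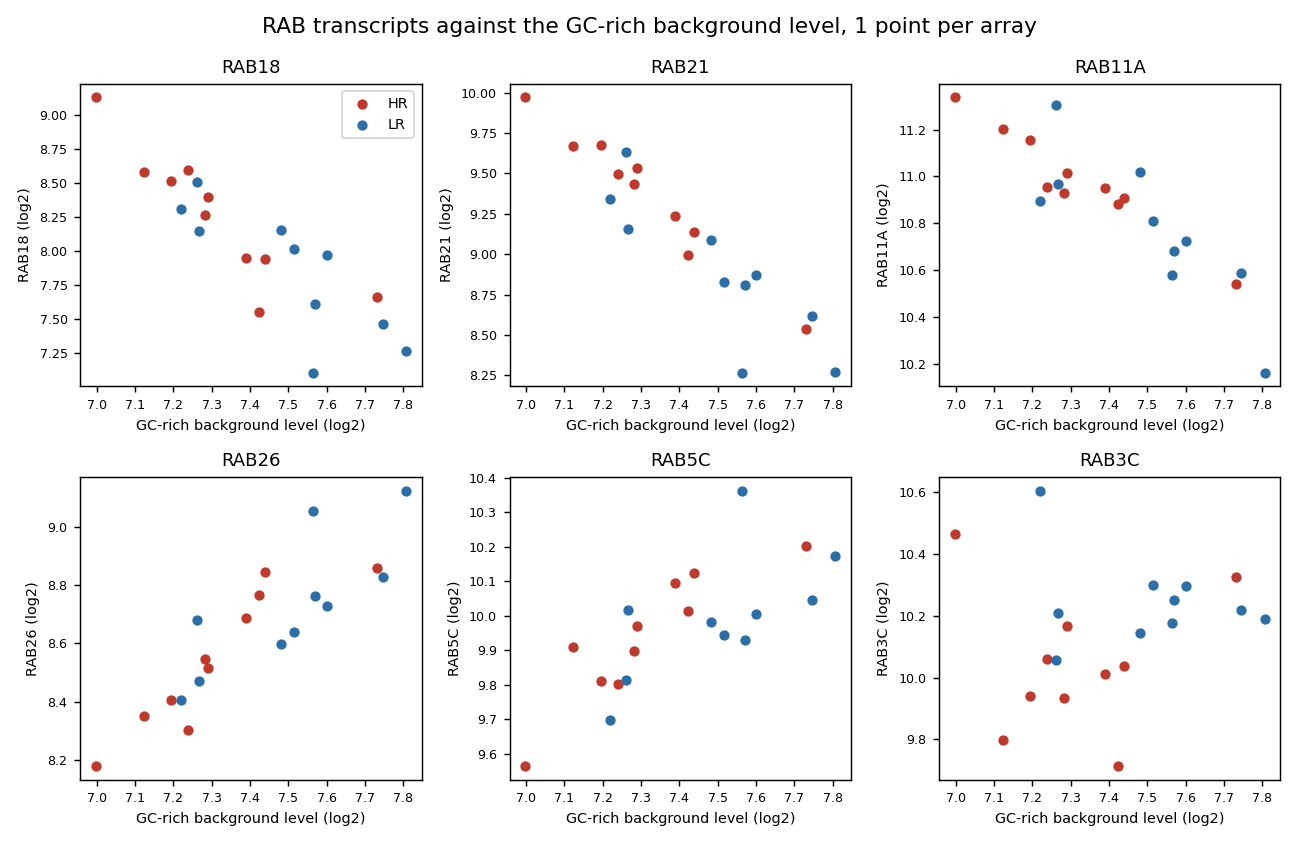
Log2 value of 6 RAB genes against the GC-rich background level of the array in log2, 1 point for each of 20 arrays, HR in red and LR in blue. RAB18, RAB21 and RAB11A were lower and RAB26 and RAB5C higher on arrays with a higher level, whereas the HR points of RAB3C (mean 10.05) lay mostly below its LR points (mean 10.25).

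Both levels also differed in their means between HR and LR, so the group differences were fitted again beside them. With the GC-rich background level in the fit 4 RAB genes had an unadjusted p under 0.05, against 6.93% of all probe sets. They were RAB10 with 0.20 (p = 0.0206), RAB32 with 0.24 (p = 0.0112), RAB3C with -0.22 (p = 0.0321) and RAB27B with -0.42 (p = 0.0419). RAB21, at 0.48 without it, was at 0.11 (p = 0.214), RAB14 at 0.06 (p = 0.352) and RAB18 at 0.02 (p = 0.899). With the neuron level in its place 5 had a p under 0.05, against 7.45% of all probe sets. They were RAB32 with 0.27 (p = 0.00487), RAB36 with 0.16 (p = 0.0332), RAB8B with -0.25 (p = 0.0383), RAB31 with 0.19 (p = 0.0397) and RAB3C with -0.20 (p = 0.0488), of which RAB36, RAB8B and RAB31 were not under 0.05 without it. RAB10 was at 0.16 (p = 0.0564), and RAB18 changed its sign to -0.05. With a number from the sample titles, whose meaning is not stated and which averaged 2863 in HR and 2601 in LR, 0 RAB genes had a p under 0.05 against 2.83% of all probe sets. RAB32 was then at 0.21 (p = 0.0546), RAB3C at -0.19 (p = 0.106) and RAB10 at 0.14 (p = 0.319), while RAB14 at -0.02 and RAB2A at -0.05 changed their sign. Every HR array except HR replicate 1 had a higher title number than any LR array. Number and group therefore nearly coincided, and the fit with the title number cannot tell them apart. With and without these terms the difference lay between 0.20 and 0.27 for RAB32, between -0.22 and -0.19 for RAB3C and between 0.14 and 0.49 for RAB10.

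Other cell type markers were read in the same way. Along the mean of 7 oligodendrocyte markers 0 RAB genes passed the adjusted threshold with limma, against a background of 0%, and RAB13 and RAB28 had an unadjusted p under 0.05 against 3.13% of all probe sets. Along the mean of 5 choroid plexus markers 0 passed it, against 0.021% rising and 0% falling. At an unadjusted p under 0.05 there were 12 along the choroid plexus level, 6 rising and 6 falling, against 25.9% of all probe sets, with RAB19 first (0.24 ± 0.07, p = 0.00211).

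Paralogs were compared over the arrays in the 6 pairs the RAB3, RAB27, RAB5 and RAB7 subfamilies allowed. RAB5B and RAB5C, both early endosomal, varied together, with r = 0.862 (permutation p = 1e-05, the smallest possible, adjusted 6e-05) and rho = 0.780 (p = 5e-05, adjusted 3e-04). The relation was r = 0.815 within HR (permutation p adjusted over the pairs 0.0254) and 0.912 within LR (adjusted 0.00294), and 0.802 without the 2 arrays farthest from the median of RAB5B. Both genes fell with the neuron level above. Both also followed the main axis of variation of all kept probe sets (r = -0.815 for RAB5B and -0.856 for RAB5C). How often other pairs of genes reach such an r was not computed, so the relation is not shown to be particular to these paralogs. RAB27A and RAB27B had r = 0.403 (adjusted p = 0.238) and RAB7A and RAB7B r = 0.211 (adjusted p = 0.557). The RAB3 pairs had r between -0.336 and 0.033, none with an adjusted p under 0.05, so that RAB3B, RAB3C and RAB3D did not show a common order of arrays.

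Other genes of the RAB cycle were read from lists of regulators and effectors. Of 129 listed genes 101 were measured, and 0 passed the adjusted threshold with limma. At an unadjusted p under 0.05 there were 7 higher and 2 lower in HR, against the background of 7.78% and 3.74%, and the median difference was -0.04, with 39 positive and 62 negative. The GTPase-activating proteins held 7 of these 9 genes, 6 higher and 1 lower of 28 measured. TBC1D12, a TBC-domain protein of recycling endosomes, ran from 6.18 through 6.75 to 7.51 in HR and from 5.74 through 6.42 to 6.92 in LR, a difference of 0.44 ± 0.16 (p = 0.011). TBC1D5, which acts on RAB7, differed by 0.22 ± 0.09 (p = 0.0172), and TBC1D9 by 0.19 ± 0.08 (p = 0.0237). TBC1D4 and TBC1D1, the GTPase-activating proteins of RAB10 in GLUT4 traffic, differed by 0.19 ± 0.08 (p = 0.0293) and 0.16 ± 0.07 (p = 0.0247). RABGAP1L differed by 0.40 ± 0.18 (p = 0.0408). TBC1D2B was lower in HR by its means, at -0.15 ± 0.07 (p = 0.0394), with the LR median exceeded on 0 of 10 HR arrays.

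MYRIP, an effector that links RAB27A to myosin motors, ran from 7.67 through 7.76 to 8.01 in HR and from 7.54 through 7.61 to 7.84 in LR. All 10 HR values exceeded the median of LR, though the ranges overlapped, and the difference was 0.13 ± 0.06 (p = 0.0281). MYO5B, a myosin motor bound by RAB11, differed by -0.16 ± 0.08 (p = 0.0436) with the LR median exceeded on 1 of 10 HR arrays. The effectors of RAB3 at the active zone gave no p under 0.05, with RIMS1 at 0.12 ± 0.11, RIMS2 at -0.12 ± 0.14 and rabphilin (RPH3A) at -0.07 ± 0.08. Other endosomal effectors lay at -0.12 ± 0.07 for RAB11FIP3, -0.08 ± 0.06 for VPS41 and 0.20 ± 0.13 for APPL2, and the Golgi and outgrowth effectors ERC1, GCC2, GORASP2 and MICALL1 at 0.15, 0.13, 0.06 and -0.07. Of the prenylation and delivery genes RABGGTB, RABAC1, GDI2 and CHML differed by 0.26, -0.11, -0.08 and -0.10. The exchange factor list had 0 of 24 genes under 0.05, with 6 positive and 18 negative differences where 45.9% of all kept probe sets were positive. It had DENND3 at -0.17 ± 0.09 (p = 0.0686), DENND1A at -0.11 and DENND5B at 0.34. RAB3GAP2, at 0.11 ± 0.06 (p = 0.0865), was counted in this list only and not among the GTPase-activating proteins above.

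RABEP1 was the 1 listed gene inside the chromosome 12 QTL interval, which was taken from METTL16 to ATP1B2, and it spans 51602228 to 51868180 on Sscrofa 11.1. It encodes rabaptin-5, an effector of RAB5 on early endosomes. It ran from 8.64 through 9.30 to 10.34 in HR and from 8.52 through 9.30 to 9.94 in LR, so that the medians were the same to the second decimal. The difference was 0.14 ± 0.19 (p = 0.469, 95% interval -0.26 to 0.54), and its 2 other probe sets differed by -0.004 and 0.006.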

How the data were processed

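Hippocampus RNA of 20 pigs, 10 HR and 10 LR, was hybridized to 1 Snowball array each. The deposited table holds 1 log2 value per probe set and array, computed by the authors with RMA (robust multichip average) in Expression Console after scanning (GCOS 1.1.1 per the submitters' processing notes). RMA corrects the background, gives all arrays 1 distribution and summarises probes, so a shift shared by most transcripts cannot be seen. Detection calls were not used. Without the 123 control probe sets, 23861 of 47722 others were kept, with a mean above the median of the means (5.53). Symbols came from the platform annotation and positions from the RefSeq genes of Sscrofa 11.1. Each RAB gene was read from its brightest probe set, and 19 of 38 had several.

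The comparison of HR and LR used lmFit and eBayes of limma 3.58.1 in R 4.3.3, two-sided, and p-values were adjusted by Benjamini-Hochberg over the 23861 probe sets, with a threshold of 0.05. Slopes along marker levels were fitted with the group as a covariate. On simulated data with 10 against 10 arrays, 73 of 100 probe sets changed by 0.5 log2 units and 98 of 100 changed by 1 were called, with 0 false calls. For this the group means were removed, the arrays were shuffled and all these probe sets were changed at once. The adjustment is less strict when many probe sets change. The shares called therefore do not tell how often a difference of that size would be called between HR and LR. Correlations over arrays were tested with 100000 permutations. The RAB genes and all gene lists were chosen with earlier results of these data known. Named were all RAB3, RAB27, RAB5, RAB7, RAB11, RAB1 and RAB6 genes among the RAB genes read, and others with an unadjusted p under 0.05 filled to 10. Also named were up to 6 called per marker level and direction, 4 regulators per list by smallest p and those in the QTL interval. RAB genes beyond that rule, RABGAP1L, TBC1D4 and TBC1D2B were named after their values were seen. Alternatives were other filters, probe set choices, covariates, array weights, an exact Wilcoxon test, centring and leaving out arrays. Replicate numbers follow the order of deposit. Each animal gave 1 hippocampus array, and precision is limited by the number of arrays.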

Additional observations from a re-analysis of the deposited data

Results flagged for a closer look

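In 7 of 76 groups (38 genes in HR and in LR) the highest or lowest array lay far from the others by Dixon's criterion, where chance gives about 1 in 20, or 3.8. The groups share the same arrays and many genes varied together, so they are not independent. The share over all kept probe sets was not computed. HR replicate 1 accounted for 5 of the 7. In HR it was the lowest array for RAB10 (8.98, next 9.62), RAB12 (8.77, next 9.14), RAB14 (9.79, next 10.29) and RAB2A (9.26, next 9.85), and the highest for RAB1B (7.57, next 7.30). Among the HR arrays, HR replicate 1 also had the highest GC-rich background level (7.73) and the lowest neuron level (10.84). Whether its place on these levels accounts for the outlying values was not tested. RAB32 was highest in HR replicate 4 (8.27, next 8.06). RAB3C was highest in LR replicate 9 (10.60, next 10.30).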

How the results depend on the processing

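No paired analysis was possible because the replicate numbers are in the order of deposit and pair nothing. The title number nearly separated HR from LR. With it in the fit, 0 RAB genes had an unadjusted p under 0.05 (0 higher and 0 lower in HR) and 1 regulator did. RAB14 (-0.023) and RAB2A (-0.051) changed their sign. The GC-rich background level gave 4 (2 higher, 2 lower) and 4 regulators. The neuron level gave 5 (3 higher, 2 lower), with RAB18 at -0.046. Both levels together, chosen after seeing the data, gave 5 (4 higher), against 7.64% of all probe sets, with RAB18 at -0.040. The first principal component gave 11 (9 higher, 2 lower), against 13.5% of all probe sets, and 18 regulators. The oligodendrocyte level gave 7 (7 higher, 0 lower), against 8.22% of all probe sets. With the choroid plexus level there were 13 (9 higher, 4 lower), against 20.4% of all probe sets. Array weights gave 14 (4 lower), against 23.5% of all probe sets, 5 of them after adjustment, and 16 regulators, 1 after adjustment. Without the arrays at both ends of the first principal component 5 were higher and 2 lower, against 7.28% of all probe sets in either direction. Leaving out 1 array, 7 to 11 had a p under 0.05 (7 to 9 higher, 0 to 3 lower), where the share of all probe sets moved from 7.91% without LR replicate 1 to 18.8% without HR replicate 1, 0 to 1 after adjustment, 23 to 24 were positive and the median difference was 0.03 to 0.06. Regulators had 4 to 12 under 0.05, 0 after adjustment and 35 to 42 positive. The neuron level gave 11 to 14 rising and 7 to 12 falling, the GC-rich background level 10 to 13 rising and 12 to 14 falling, and the oligodendrocyte and choroid plexus levels 0 throughout. The slopes along the GC-rich background level were added after seeing the data. With that level in the fit 0 genes rose and 0 fell along the neuron level, and the slopes of RAB12 (-0.14), RAB23 (-0.40), RAB28 (-0.96) and RAB3D (0.069) changed sign. With the first principal component in it 5 rose and 1 fell, with RAB20 (0.017), RAB26 (0.31), RAB3D (1.04) and RAB5B (0.62) changing sign. Along the GC-rich background level that component left 1 rising and 3 falling, with changed signs for RAB22A (-0.046), RAB33A (-0.11), RAB36 (-0.081), RAB3D (-0.42), RAB5B (-0.35), RAB8B (0.52) and RAB9B (0.027). The cause of these changes was not tested. The shares of all probe sets called along either level in these alternative fits were not counted, so the changed counts are no trait of the RAB genes alone. Of 39 further probe sets of the RAB genes 27 had the sign of the brightest, and 20 of the 25 above the level. The mean of all kept probe sets lowered the level of all 15 genes with several, by 0.15 to 2.55, and for 12 by at least the SD of the gene over the arrays.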
